A study of Mus musculus with 24 samples.

Results

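The genes described here are the neighbours Gpr162, Cd4, Lag3, Ptms, Mlf2 and Cops7a, which lie in this order on mouse chromosome 6. They are 6 of the 55401 genes in the expression tables, and they were chosen by name, with earlier results of these data in view, as the neighbourhood of Lag3 and Cd4. The values that guided the choice are the expression, methylation and chromatin values given below, which are therefore descriptions without a test. Treated and untreated cells are set side by side across the neighbourhood in RNA and DNA methylation, and the chromatin of the same genes is given by barcode ending.

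LiNKT cells are invariant natural killer T (iNKT) cells of the liver, sorted here by their binding of αGalCer-loaded CD1d tetramers. They came from NOD mice, which become diabetic through autoimmunity. Mice were left untreated or received αGalCer/CD1d-NPs, nanoparticles that carry CD1d loaded with the glycolipid αGalCer, at 20 µg per dose, 2 doses per week, for 5 weeks. SmartSeq2, which sequences the RNA of single sorted cells, was done on cells of 3 untreated and 3 treated male mice of 13 to 15 weeks. Whole genome bisulfite sequencing, which reads DNA methylation in bulk, was done on cells of 7 untreated females of 17 weeks and 4 treated mice of 16 weeks, whose sex is not given in the sources used here. The chromatin of single nuclei (multiome) came from 5 untreated and 4 treated male mice of 13 to 15 weeks. The study sequenced replicate bisulfite samples, which the deposited table gives as 1 value per group. Each group enters every table used here as 1 sample or 1 value, so that no difference has a replicate check within these tables and no p-value is given. In the bisulfite data, fewer cells of a type and a change within cells cannot be told apart.

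LAG-3 is an inhibitory receptor that appears on T cells after activation, binds MHC class II molecules and marks type 1 regulatory T (TR1) cells. CD4 is the coreceptor that binds MHC class II on helper T cells, and mouse iNKT cells carry it or carry neither CD4 nor CD8. Both are immunoglobulin superfamily proteins of related structure, encoded side by side. Of the genes around them, Ptms encodes parathymosin, a small acidic nuclear protein related to prothymosin α, and Gpr162 an orphan G protein-coupled receptor. Mlf2 encodes myeloid leukemia factor 2, and Cops7a a subunit of the COP9 signalosome, the complex that removes NEDD8 from cullin ubiquitin ligases.

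On chromosome 6 of GRCm38 (GENCODE release M21), Gpr162 (ENSMUSG00000038390.11) spans chr6:124858444-124863983, Cd4 (ENSMUSG00000023274.14) chr6:124864692-124888221, Lag3 (ENSMUSG00000030124.2) chr6:124904361-124911705, Ptms (ENSMUSG00000030122.12) chr6:124913681-124920103 and Cops7a (ENSMUSG00000030127.15) chr6:124958413-124965538, all on the minus strand. Mlf2 (ENSMUSG00000030120.14) spans chr6:124931386-124937238 on the plus strand. Positions below are counted from the start of a gene along its own direction, with negative values upstream. Lag3 lies with its 3′ end towards Cd4, whose start is at 23.5 kb on this scale, and with its start towards the 3′ end of Ptms.

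The deposited list of 2873 differentially methylated regions (DMRs) holds 4 regions in this neighbourhood, and all 4 were less methylated in treated than in untreated cells, as were 1983 of the whole list. The sequences of 3 of them are shown because they are stretches whose methylation differed. Each is read on the plus strand of GRCm38.p6 (RefSeq), and capitals mark the CpG dinucleotides, the sites at which the methylation was measured. The first region lies upstream of Lag3, between Lag3 and Ptms. The next, chr6:124909137-124909918, lies in Lag3 at 1787 to 2568 bases and holds the whole of coding exon 4 (264 bases) with the adjoining parts of introns 3 and 4. The third, chr6:124907206-124907750, lies in intron 5 of Lag3, and the fourth, chr6:124886607-124886856, in intron 1 of Cd4 at 1365 to 1614 bases from the Cd4 start. No region overlapped Gpr162, Ptms, Mlf2 or Cops7a. Of regions longer than 300 bases, the window of that length with most CpGs is shown, trimmed to its outermost CpGs. The stretches are chr6:124909354-124909621 of the exon 4 region, chr6:124907497-124907750 of the intron 5 region and chr6:124886606-124886857 of the Cd4 region.
Lag3 exon 4 region: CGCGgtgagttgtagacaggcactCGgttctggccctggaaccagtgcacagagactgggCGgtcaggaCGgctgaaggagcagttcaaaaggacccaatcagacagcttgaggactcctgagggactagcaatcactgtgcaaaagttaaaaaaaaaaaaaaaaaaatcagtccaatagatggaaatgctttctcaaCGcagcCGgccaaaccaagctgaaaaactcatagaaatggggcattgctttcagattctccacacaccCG
Lag3 intron 5 region: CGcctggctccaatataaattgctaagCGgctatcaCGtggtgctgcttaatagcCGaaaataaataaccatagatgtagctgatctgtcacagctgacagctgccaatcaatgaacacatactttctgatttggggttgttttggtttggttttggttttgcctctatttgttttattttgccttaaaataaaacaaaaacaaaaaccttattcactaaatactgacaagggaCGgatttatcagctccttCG
Cd4 intron 1 region: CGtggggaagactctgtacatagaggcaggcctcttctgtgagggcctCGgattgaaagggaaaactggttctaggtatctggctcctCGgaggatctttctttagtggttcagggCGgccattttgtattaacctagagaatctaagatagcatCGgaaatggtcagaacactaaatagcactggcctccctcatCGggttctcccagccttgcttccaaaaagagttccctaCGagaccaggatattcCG

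In the SmartSeq2 data, Lag3 was read in treated cells only. Cells with an assigned sub-cluster were used, 273 untreated and 251 treated. A cell was called positive with at least 1 read, and the summed reads of each group were divided by its total and given per 1000000 (CPM). The untreated cells held 0 reads of Lag3, which allows a share of up to 1.10% of cells. A floor of 3 reads over the group is 0.0174 CPM. The treated cells held 103894 reads in 56 cells (22.3%, 95% exact binomial interval 17.3 to 28.0), or 697 CPM (95% exact Poisson interval 693 to 701). In the positive cells the lowest count was 2 reads, the median 1587.5 and the highest 6400, and 50 of the 56 held at least 100 reads. The level was 40085-fold that of the untreated floor, which counts reads as independent. This fold is no lower bound, since a positive treated cell held a median of 1587.5 reads and a single missed cell could exceed the floor. The top cell held 6.16% of the treated reads. These intervals and floors cover counting error only, since PCR copies the reads of a molecule and cells of the same mice are not replicates.

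Among the 15052 genes with at least 10 summed reads, 20.1% were at least 2-fold higher in treated cells and 17.2% at least 2-fold lower (log2 ratio with 1 CPM added to both levels). Of the 6 genes, Lag3, Cd4 and Ptms passed the first bound, Cops7a the second, by a margin lost in other settings, and Mlf2 neither, while Gpr162 had no reads. The log2 ratio of Lag3, 9.45, had rank 3 among them, although against 0 reads it depends on the added CPM and is no bound. With no untreated read and reads in at least 20% of treated cells, Lag3 stood as 1 of 15052 genes (0.00664%), a threshold set after its values were seen.

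Cd4 was read in both groups. The untreated cells held 13678 reads in 14 cells (5.13%, 2.83 to 8.45), with 23 reads in the lowest of them, a median of 665.5 and a highest of 2455. The treated cells held 30907 reads in 30 cells (12%, 8.21 to 16.6), with 7 reads in the lowest, a median of 784.5 and a highest of 3619. Scaled to the depth of each cell, the median of the positive cells was lower in the treated group, at 1053 CPM against 1753 CPM. The ranges of the positive cells overlapped almost wholly. More cells were positive in the treated group, but the intervals of the shares overlapped narrowly, from 8.21 to 8.45%. The level was 79.3 CPM (77.9 to 80.6) against 207 CPM (205 to 210), a log2 ratio of 1.38.

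Ptms was the third gene with a higher level in treated cells, but at a low number of reads. It had 1007 reads in 7 untreated cells (2.56%, 1.04 to 5.21), from 9 to 324 reads with a median of 147. The treated cells held 4224 reads in 38 cells (15.1%, 10.9 to 20.2), from 1 to 527 with a median of 87.5. The difference lay in the number of positive cells, since their median was not higher. The level was 5.84 CPM against 28.3 CPM, a log2 ratio of 2.10, which was 1.84 among the cells of sequencing lane 1 and 3.30 among those of lane 2. The untreated level of lane 2 rested on 65 reads in 1 of 89 cells. Over both lanes the top cell held 32.2% of the untreated and 12.5% of the treated reads. The antisense gene A230083G16Rik, which overlaps Ptms and whose reads cannot be told from its own without strand, had 0 reads in both groups.

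Of the genes furthest from Lag3 on the side of Ptms, Mlf2 was higher in treated cells by less than 2-fold, and Cops7a was lower. Mlf2 had 24544 reads in 29 untreated cells (10.6%) and 30863 in 39 treated cells (15.5%), or 142 against 207 CPM, a log2 ratio of 0.54. Cops7a had 20758 reads in 17 untreated cells (6.23%) and 8875 in 10 treated cells (3.98%), or 120 against 59.5 CPM, a log2 ratio of -1.0. It was past 2-fold in lane 2, with 231 against 72 CPM, and not in lane 1, with 61.8 against 53.8 CPM. The share of positive cells was lower in the treated group in lane 2 (12.4% against 5.13%) but not in lane 1 (3.26% against 3.47%). Of the treated reads, 26.0% were in 1 cell. The log2 ratio of Cops7a also fell short of -1 over all deposited cells (-0.93), over cells with at least 500 genes (-0.99), as a mean over cells (-0.98) and with 10 CPM added (-0.91). The intervals of the Mlf2 shares (7.23 to 14.9% and 11.3 to 20.6%) and of the Cops7a shares (3.67 to 9.78% and 1.93 to 7.20%) overlapped between the groups. Gpr162 had 0 reads in either group, which allows a share of up to 1.10% of untreated and 1.20% of treated cells.

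**Figure D1:**
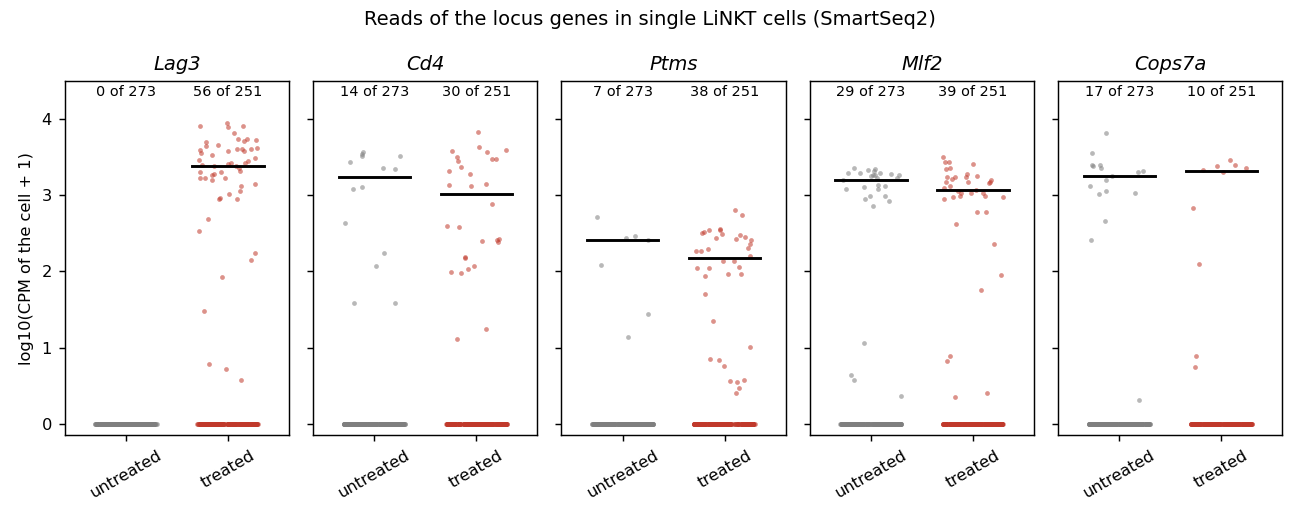
Reads of 5 genes in each LiNKT cell, as log10 of the CPM of the cell plus 1, for 273 untreated and 251 treated cells; the line is the median of the positive cells and the numbers above give the positive cells. Lag3 is at 0 in every untreated cell and positive in 56 treated cells, while the other genes are positive in both groups.

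Per length of exon, the order of the genes differed between the groups. In untreated cells of both lanes together, Cops7a came first with 44.4 RPKM (reads per kb of exon and 1000000 reads), followed by Mlf2 with 34.6, Cd4 with 19.7 and Ptms with 3.60 RPKM. In treated cells, Lag3 came first with 330 RPKM, and Cd4 (51.4, 50.8 to 52.0) and Mlf2 (50.4, 49.9 to 51.0) were next with overlapping intervals. Cops7a (22) and Ptms (17.5) followed. The pooled orders of the others were further apart than their counting intervals, but differed between the lanes. Among untreated cells, Cops7a lay below Mlf2 in lane 1 (22.8 and 32.1 RPKM) and above it in lane 2 (85.1 and 39.4 RPKM). Among treated cells, Cd4 lay below Mlf2 in lane 1 (41.5 and 50.7 RPKM) and above it in lane 2 (72.8 and 49.8 RPKM). Treated Cops7a and Ptms had overlapping intervals in lane 1 (19.3 to 20.4 and 19.3 to 20.7 RPKM). Lag3 came first among treated cells in both lanes.

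By the sub-clusters that the study assigned from the expression of these cells, Lag3, Cd4 and Ptms had their highest shares in the same one. Lag3 was positive in 42 of the 57 cells of sub-cluster 5, which held treated cells alone (73.7%, 60.3 to 84.5), against 7 of 61 treated cells of sub-cluster 2 (11.5%) and 7 of 133 of sub-cluster 4 (5.26%). Sub-cluster 5 held 81.5% of all Lag3 reads. Cd4 was positive in 21 of the 57 cells (36.8%, 24.4 to 50.7), in 6 treated cells of sub-cluster 2 (9.84%) and in 3 of sub-cluster 4 (2.26%). In untreated mice all 14 Cd4-positive cells belonged to the 228 cells of sub-cluster 2 (6.14%), and 0 of the 43 cells of sub-cluster 4 were positive, which allows up to 6.98%. Ptms was positive in 20 of the 57 cells (35.1%, 22.9 to 48.9) and in 15 of the 133 treated cells of sub-cluster 4 (11.3%). Mlf2 ranged from 12.8% to 19.3% over the treated sub-clusters, and Cops7a from 3.01% to 6.56%. Because the sub-clusters were assigned from the expression of the same cells, these shares describe the sub-clusters and are no independent comparison.

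**Figure D2:**
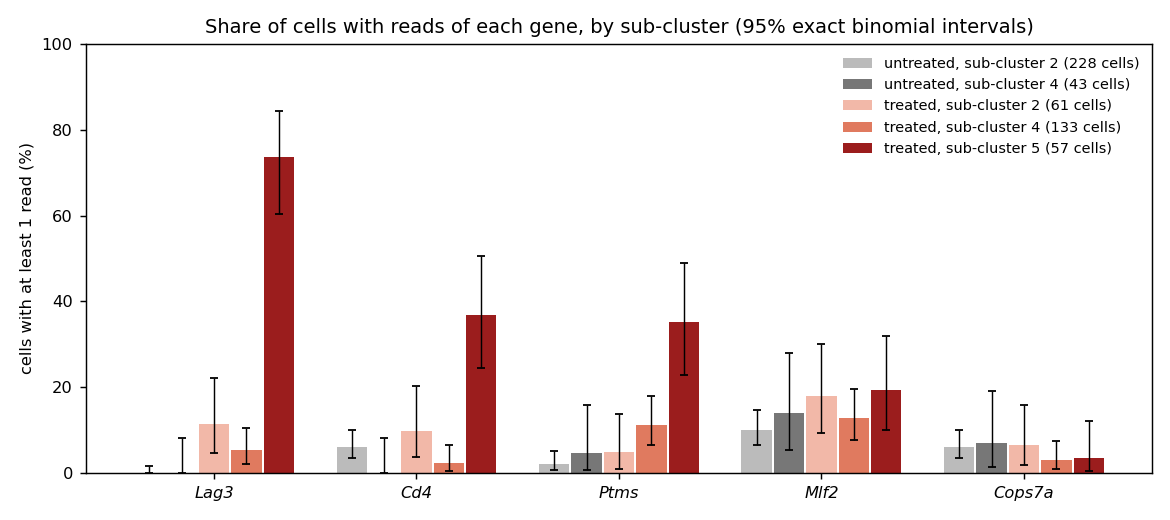
Share of cells with at least 1 read of each gene by group and sub-cluster, in percent, with 95% exact binomial intervals; 2 untreated cells of sub-cluster 3 are left out. The bars of Lag3, Cd4 and Ptms are highest in treated sub-cluster 5 (73.7%, 36.8% and 35.1%), and those of Mlf2 and Cops7a have overlapping intervals.

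Within the treated cells, Lag3 was found together with Cd4 and Ptms more often than the product of their shares. Of 251 cells, 19 held both Lag3 and Cd4 where the shares give 6.69, and 18 held Lag3 and Ptms where they give 8.48. Cd4 was thus read in 33.9% (21.8 to 47.8) of the 56 Lag3-positive and in 5.64% (2.85 to 9.87) of the 195 Lag3-negative cells. For Ptms the shares were 32.1% (20.3 to 46.0) and 10.3% (6.38 to 15.4). Lag3 and Mlf2 were both read in 11 cells, near the 8.70 given by the shares, and Lag3 and Cops7a in 2 cells, near 2.23. Lag3-positive cells had a median of 679864.5 reads and 968.5 genes per cell and Lag3-negative cells 593485 reads and 826 genes. Thinning to 200000 reads per cell kept 243 treated cells and left out 8, so that its percentages have another denominator. Both Lag3 and Cd4 were read in 7.82% of the thinned treated cells (7.57% of the 251 without thinning). For Lag3 and Ptms the values were 7.41% (7.17%), for Lag3 and Mlf2 4.12% (4.38%) and for Lag3 and Cops7a 0.823% (0.797%). Thinning could change the Lag3 and Cd4 calls little, since their positive treated cells held medians of 1587.5 and 784.5 reads. It does not address the difference in genes per cell. Within sub-cluster 5 the numbers lay near the product of the shares, with 18 cells for Lag3 and Cd4 (15.5) and 16 for Lag3 and Ptms (14.7).

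The cytokine genes Il10 and Il21, which TR1 and follicular helper cells express, were at 0 reads in untreated cells. Il10 was read in 20 of the 56 Lag3-positive treated cells (35.7%) and in 12 of the 195 Lag3-negative ones (6.15%), and Il21 in 17 (30.4%) and 9 (4.62%). Lag3 and Il10 were read together in 7.97% of all treated cells, in 9.83% of those of lane 1 and in 3.85% of those of lane 2. Within sub-cluster 5, Lag3 and Il10 were both read in 19 cells, near the 18.4 given by the shares, and Lag3 and Il21 in 17, near 15.5. Among 2057 other genes read in at least 10% of the 251 treated cells, those most like Lag3 by Spearman's rho of log2(CPM + 1) were Maf (0.51), Sccpdh (0.46), Gm37004 (0.42), Ccnd2 (0.42) and Ctsb (0.41). For Cd4 they were St6galnac1 (0.40), Gm11735 (0.39), Lag3 (0.38), Maf (0.35) and Pdcd1 (0.30). These correlations are descriptions over cells that share libraries and depth. Maf encodes a transcription factor of TR1 cells and Pdcd1 the inhibitory receptor PD-1.

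Genes around and related to the 6 gave a frame for these values. Of 23 further protein-coding genes that start within 250 kb of Lag3, 22 were matched to the expression counts and 17 had at least 10 summed reads. The median log2 ratio of these 17 was 0.34, against 0.02 over all genes. Of the 17, 6 were at least 2-fold higher and 2 lower in treated cells, beside 20.1% and 17.2% of all genes tested. Several of these calls rest on few cells, such as Acrbp (read in 0.366% of untreated and 0.797% of treated cells), Ing4 (0.366% and 1.59%) and Iffo1 (1.10% and 1.20%). The higher ones with at least 100 reads were Lpcat3 (1.12), Grcc10 (1.33), Usp5 (1.85), Cdca3 (3.77, with 0 untreated reads), Ing4 (2.24) and Acrbp (1.5), and the lower ones Lpar5 (-2.83) and Iffo1 (-1.52). Of 13 tested genes for the T cell receptor complex, its coreceptors and its proximal signalling, Cd4 alone passed 2-fold, and their median log2 ratio was 0.17. Cd8a, which encodes the other coreceptor, had 28.0 and 55.9 CPM, and Cd8b1 had 0 reads in both groups.

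Among 13 tested factors known to act on Cd4 transcription, Tox was at least 2-fold higher (9.91 against 43.6 CPM) and Cbfb and Lef1 lower (13.5 against 0.00671 and 62.2 against 8.51 CPM), with a median log2 ratio of 0.01. These counts, like those of the next list, stand beside 20.1% of all genes higher and 17.2% lower. Cbfb was read in 0.733% of untreated and 0.398% of treated cells, so that its level rests on few cells. Zbtb7b, the factor that commits thymocytes to the CD4 lineage, and Runx3, which represses Cd4, had log2 ratios of 0.01 and 0.04, and Runx3 was read in 10.3% of untreated and 4.38% of treated cells. Of the 10 COP9 signalosome genes, Cops2 was at least 2-fold higher (1.35) and Cops3 (-1.59), Cops7a (-1.0) and Cops8 (-1.17) lower, with a median of -0.12. Ptma, the relative of Ptms, had a log2 ratio of -0.47.

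The 8 tested genes for LAG-3 ligands and shedding had a median log2 ratio of 5.93. Of them, H2-Aa, H2-Ab1, H2-Eb1, Cd74 and Clec4g were at least 2-fold higher in treated cells, beside 20.1% of all genes tested. The first 4 serve MHC class II, the ligand of LAG-3, and each had 0 untreated reads. Markers of other cells stood beside them. The macrophage genes Lyz2, C1qa and Csf1r summed to 0.0116 CPM in the untreated group and to 1793 CPM in the treated group, and 4 hepatocyte genes to 0 and 82.3 CPM. At least 5 reads of a macrophage, hepatocyte or B cell marker were found in 14 treated and 0 untreated cells, and those 14 cells held 100% of the H2-Aa and H2-Ab1 reads, 92.8% of the H2-Eb1 and 99.1% of the Cd74 reads. None of the 56 Lag3-positive cells was among them. Without them the log2 ratio of Lag3 was 9.52, that of Cd4 1.45 and that of Ptms 2.07, and 3 of 6 tested ligand genes (H2-Eb1, Cd74 and Clec4g) remained past 2-fold. The share of all genes past 2-fold was not computed without these cells. The remaining calls rest on few cells. H2-Eb1 was read in 13 treated cells, 7 of them among the 14, and Cd74 in 13, 11 of them among the 14. Clec4g was read in 1 cell, a Lag3-positive one. Without the 14 cells Cd8a also passed 2-fold in the coreceptor list and Pianp among the neighbours. The iNKT and T cell markers Cd3e, Trac, Zbtb16, Nkg7 and Il2rb had log2 ratios from -0.62 to 0.64, and B cell markers had 0.0116 CPM or none. Foxp3, the factor of regulatory T cells, had 0 and 4.92 CPM and was read in 0.398% of treated cells. Ikzf2, the other marker used for these cells, had a log2 ratio of 0.65. It was read in 4.03% of untreated and 13.1% of treated cells. Plasmacytoid dendritic cell markers had 2 tested genes, neither past 2-fold.

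In the bisulfite data, the 4 regions held 78 CpG cytosines, counting both strands, and all 78 were less methylated in treated cells. The regions were called for this difference and the deposited sites lie within called regions, so that the direction of the sites is largely fixed by the choice. A methylation level is the fraction of reads that kept the cytosine. In the region upstream of Lag3 the level was 0.807 ± 0.133 (SD over 14 sites) in untreated and 0.436 ± 0.166 in treated cells. In the exon 4 region it was 0.912 ± 0.0819 and 0.541 ± 0.141 (34 sites), and in the intron 5 region 0.873 ± 0.0660 and 0.528 ± 0.192 (16 sites). In the Cd4 region it was 0.751 ± 0.123 and 0.487 ± 0.121 (14 sites). The SD is the spread between sites, not between mice, and the read depth per site is unknown.

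The difference was smallest at Cd4, at -0.264, and was -0.345, -0.371 and -0.371 in the intron 5, exon 4 and upstream regions. The differences of single sites covered a wider range, from -0.060 in the intron 5 region to -0.72 in the upstream region. In the intron 5 region the sites near both ends had treated levels from 0.25 to 0.48, and those in its middle from 0.56 to 0.91. Of the 78 sites, 39 were below 0.5 in treated and 1 in untreated cells. In the authors' region means over all 1983 regions with less methylation in treated cells, the median difference was -0.376 and the median treated level 0.380. The authors' means of the 4 regions in treated cells, from 0.436 to 0.534, lay above that level, and their differences ran from -0.270 at Cd4 to -0.393 upstream of Lag3. The other cytosines of the 4 regions, outside CpG, had mean levels from 0.0113 to 0.0222 in untreated cells and from 0.0135 to 0.0190 in treated cells.

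**Figure D3:**
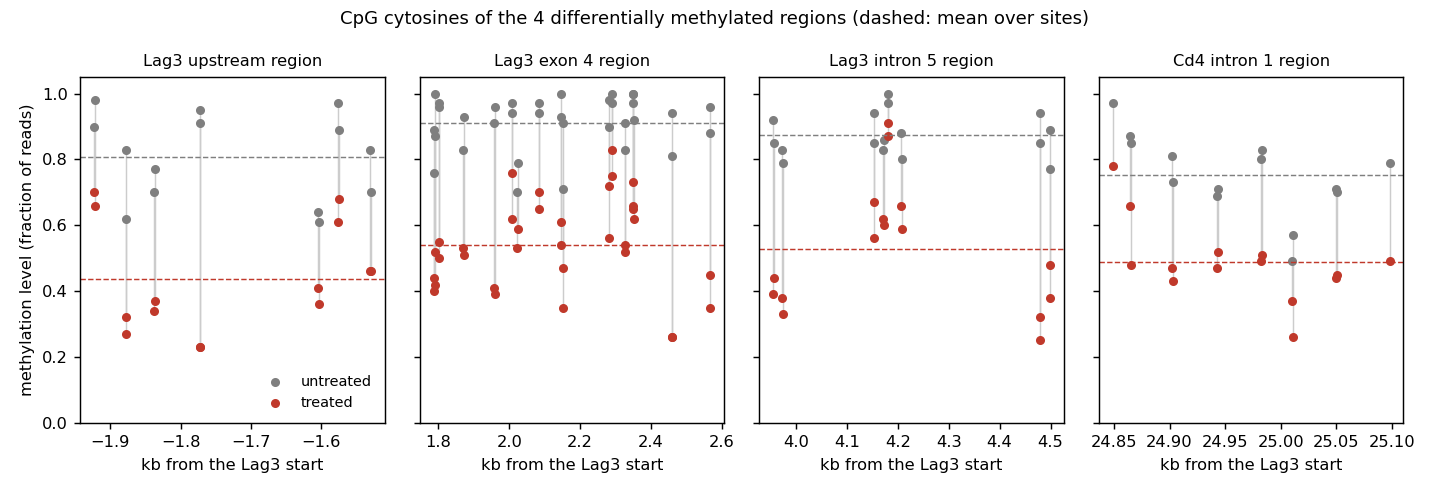
Methylation level of each CpG cytosine in the 4 regions against the distance from the Lag3 start, in untreated and treated cells; dashed lines are means over sites and grey lines join the same site. Every site is lower in treated cells, and the mean levels are 0.807 to 0.436, 0.912 to 0.541, 0.873 to 0.528 and 0.751 to 0.487 from left to right.

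Such regions were seldom found at a gene. Of the 6 genes, Lag3 and Cd4 had one in the body or within 2 kb of the start, against 2.2% of 55450 annotated genes and 4.2% of protein-coding ones. Each of the criteria alone was met by 1.93% of annotated genes in the body and by 0.546% within 2 kb of the start. Lag3 and Cd4 met both, but the criteria overlap. Cd4 met them through the same intron 1 region, and the exon 4 region of Lag3 counts under both. At least 2 in the body, as in Lag3, were found in 1.04% of protein-coding genes. The next regions on either side were at Ptpn6 and Lpar5, centred at 191 and -162 kb from the Lag3 start, and both were more methylated in treated cells (0.0884 against 0.625 and 0.0569 against 0.422 in the authors' region means). The deposited site table covers called regions alone, so that the methylation of the other promoters is not known here.

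Chromatin was read as insertions, the ends of the fragments that the transposase cut in open DNA. The barcodes of the deposited fragments end in 1 or 2, but the sources used here do not say which ending is which group, and the endings are compared only as endings. Barcodes with at least 1000 fragments were used, 8565 with ending 1 (median of 7104 fragments) and 7237 with ending 2 (8591), and 100 barcode sequences were found with both. Levels are insertions per 1000000 of the same ending (IPM), out of 162817764 insertions with ending 1 and 149740716 with ending 2.

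Of the 6 promoters, taken as 2 kb on either side of the start, that of Lag3 differed between the endings by more than 2-fold. It held 969 insertions with ending 1 (5.95 IPM, 5.58 to 6.34) and 5706 with ending 2 (38.1, 37.1 to 39.1), a log2 ratio of 2.68 (2.58 to 2.78). A log2 ratio of at least 1 was found at 5.96%, and of at most -1 at 0.851%, of the 16328 protein-coding promoters with at least 100 insertions, and Lag3 had rank 54 of them. The Cd4 promoter held 10.4 and 10.7 IPM (log2 ratio 0.04, -0.06 to 0.14), and that of Mlf2, the most open one, 90.2 and 88.3 (-0.03). The Cops7a (0.05) and Gpr162 (0.14) promoters were likewise close, and the Ptms promoter, at 8.45 and 10.4 IPM, had a log2 ratio of 0.30 (0.19 to 0.41), or 0.35 at the start of the coding RefSeq transcript, which lies in open chromatin. The Gpr162 promoter was open (17 and 18.7 IPM) although no read of the gene was found.

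Over the gene bodies Lag3 differed most as well, but its body and its promoter share the 2 kb after the start and so part of the insertions. The Lag3 body held 8.80 and 30.7 IPM, a log2 ratio of 1.80, against 2.87% of 18358 bodies with at least 1 and 0.719% with at most -1. The other 5 bodies ranged from -0.07 for Cd4 to 0.40 for Ptms. Of the 23 further genes within 250 kb, the promoters ranged from -0.22 to 0.41, and none of them reached 2-fold. Over all promoters tested, 5.96% and 0.851% did in the 2 directions, so that few were to be found among 23.

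**Figure D4:**
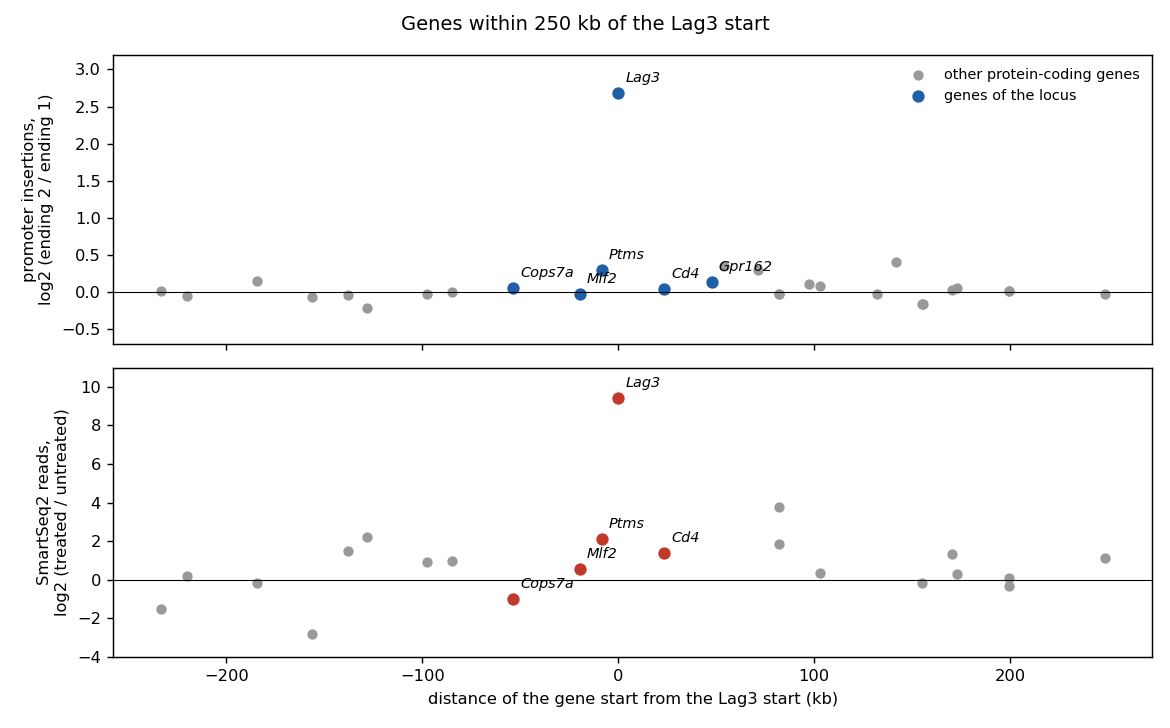
Log2 ratio of promoter insertions (ending 2 over ending 1, upper panel) and of SmartSeq2 CPM (treated over untreated, with 1 CPM added, lower panel) against the distance of the gene start from the Lag3 start, in kb. Lag3 lies at 2.68 and 9.45, and the promoters of all other genes lie between -0.22 and 0.41.

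Along the locus the chromatin held 14 open sites, defined after the profile was seen as runs of 100-base bins with at least 0.3 IPM in either ending, at least 3 bins long. Of these, 4 differed by more than 2-fold, all towards ending 2, and all lay within 13.2 kb around Lag3. A bin could pass through 1 ending alone, so that part of a difference at a site can come from this definition. The share among open sites elsewhere was not computed, and promoters past 2-fold were more often towards ending 2 over the genome as well (5.96% against 0.851%). The first covers its start and exons 1 to 3 (chr6:124909644-124912443), with 5.58 and 34 IPM and a log2 ratio of 2.61 (2.5 to 2.71). A short one in intron 5 (chr6:124907844-124908243) had 1.03 and 6.24 IPM (2.60). The third lies upstream of the start, with 0.190 and 3.08 IPM (4.02, 3.49 to 4.59), and passed the bound of 0.3 IPM through ending 2 alone. The fourth lies between Lag3 and Cd4 (chr6:124900444-124902443), centred at 10.3 kb from the Lag3 start, past its 3′ end, and at -13.2 kb from the Cd4 start. It held 337 insertions with ending 1 (2.07 IPM, 1.85 to 2.30) and 3468 with ending 2 (23.2, 22.4 to 23.9), a log2 ratio of 3.48 (3.32 to 3.65).

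The other 10 sites had log2 ratios from -0.26 to 0.48, and 1 of them lay between the 4. The site that reaches the 3′ end of Lag3 (chr6:124903444-124904443) held 23.4 and 20.1 IPM (-0.22). The largest site of Cd4, in its intron 1 (chr6:124884844-124886743), held 22.4 and 18.7 (-0.26), and that at the Cd4 start 7.30 and 6.97 (-0.07).

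**Figure D5:**
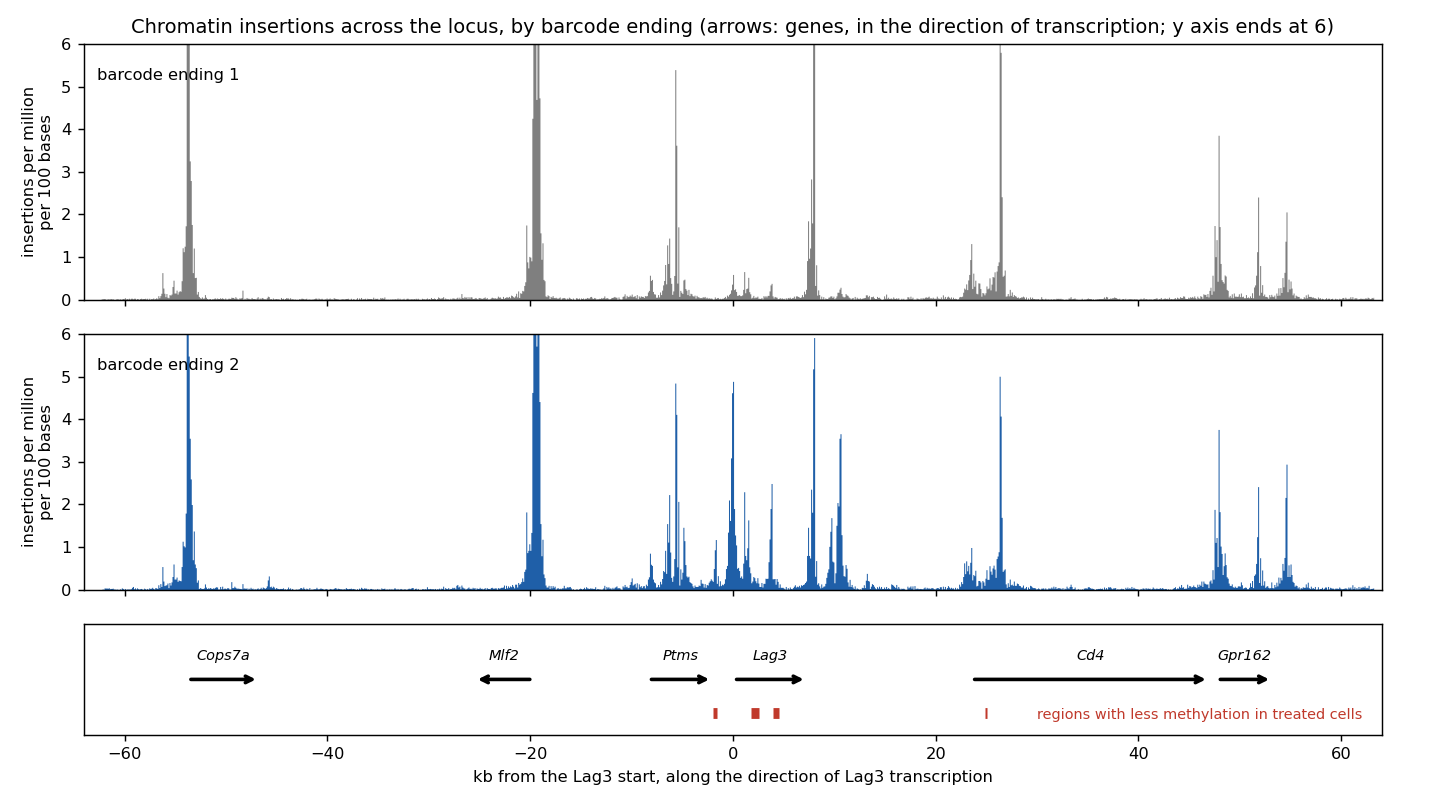
Insertions per 1000000 (IPM) in bins of 100 bases against the distance from the Lag3 start in kb, for barcode ending 1 (upper) and 2 (middle), with the genes and the 4 regions with less methylation below. Peaks at 0 and near 10 kb are higher with ending 2, and those at 8 kb, at Cd4 and at Mlf2 are present with both. The y axis ends at 6, so that the tallest peaks are cut.

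The 300 bases around the summit of the site between Cd4 and Lag3, chr6:124900944-124901243 on the plus strand, are shown because this site had the largest difference in IPM outside the genes. Capitals mark matches to 6 motifs searched on both strands, which do not overlap one another here. The motif of AP-1 was searched as TGANTCA. The RUNX factors were given the letters TGTGGT, the GATA factors AGATAA and the E-box proteins CAGGTG. For the NFAT family the search used GGAAAA, and for the TCF family it used CTTTGA.
Open site between Cd4 and Lag3: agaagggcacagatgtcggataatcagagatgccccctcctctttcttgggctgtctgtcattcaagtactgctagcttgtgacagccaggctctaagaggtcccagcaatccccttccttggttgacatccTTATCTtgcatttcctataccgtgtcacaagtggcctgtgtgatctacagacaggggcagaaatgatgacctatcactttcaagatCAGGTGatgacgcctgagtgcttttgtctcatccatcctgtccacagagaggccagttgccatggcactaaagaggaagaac
GATA and the E-box had 1 match each and the other 4 had 0. Of 32851 RefSeq promoter windows of the same length, 11.2% held the GATA letters and 20.2% the E-box letters, and the shares for AP-1, RUNX, NFAT and TCF were 7.81%, 16.8%, 23.4% and 16%. A match is a description of the letters and says nothing of binding.

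At Lag3 the DMRs lay in or beside open sites that differed between the endings, and at Cd4 partly in one that did not reach 2-fold. All 395 bases of the region upstream of Lag3 lay within the open site there, and 275 of the 782 bases of the exon 4 region within the site over the start, while the intron 5 region ended 94 bases from the short site. Over these regions themselves the log2 ratios of insertions were 4.25 (23 and 402 insertions), 1.91 (75 and 259) and 2.11 (43 and 171). The Cd4 region shared 137 of its 250 bases with the edge of the intron 1 site and had a log2 ratio of 0.47 (100 and 127 insertions, 0.08 to 0.86). The methylation and the chromatin came from different mice, and the endings are not assigned to groups, so that the values stand side by side without a direction between them.

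In single nuclei, thinned to 5000 fragments each (5410 with ending 1 and 5046 with ending 2, shallower ones left out), the Lag3 promoter held an insertion in 172 nuclei of ending 1 (3.18%, 2.73 to 3.68) and 813 of ending 2 (16.1%, 15.1 to 17.2). Without thinning the shares were 4.94% and 25.4%. The site between Cd4 and Lag3 held one in 0.980% and 10.0% of the thinned nuclei. The Mlf2 promoter, at 36.1% and 36.1%, and those of Cops7a (20.2% and 20.5%), Gpr162 (8.17% and 8.26%), Cd4 (5.27% and 5.39%) and Ptms (4.47% and 5.53%) had overlapping intervals. Among nuclei of ending 2, the site between Cd4 and Lag3 was found in 15.3% (12.8 to 17.9) of those with an open Lag3 promoter and in 9.05% (8.20 to 9.95) of the others, 124 nuclei with both where the shares give 81.7. For the Cd4 promoter the shares were 6.27% (4.71 to 8.17) and 5.22% (4.57 to 5.93), for Ptms 5.54% and 5.53% and for Mlf2 35.4% and 36.2%. For Gpr162 they were 11.2% (9.11 to 13.6) and 7.70% (6.92 to 8.55). The Ptms shares use the window at its GENCODE start (8.45 and 10.4 IPM). The window at the RefSeq start was more open (23.7 and 30.1 IPM), and nuclei were not counted over it. Few fragments of a nucleus fall in any 1 site, and these shares are descriptions.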

How the data were processed

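SmartSeq2 gene counts, bisulfite fractions and multiome fragments were analysed for untreated and αGalCer/CD1d-NP-treated mice, grouped by their labels. The authors aligned SmartSeq2 reads to GRCm38 with STAR and deposited raw counts per gene and cell; the sub-clusters come from the study's cell list. The deposited methylation fractions were made with BSMAP; how replicates were merged is not given in the sources used here. The authors' region table has a q-value, used only as a threshold of 0.05, and a difference score, which was not used. The fragment counts were deposited after Cell Ranger ARC, which shifts and deduplicates them, and each fragment end is 1 insertion. Read depth was a median of 635257 and 599896 reads per untreated and treated cell.

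Reads were summed per group, CPM and log2 ratios (1 CPM added) were computed in Python 3.11.15 with scipy 1.17.1, and edgeR 4.0.16 and DESeq2 1.42.0 gave alternative scaling. Locus regions lie within 10 kb of the gene span. Genes follow GENCODE M21. Functions were tested on simulated data. The members and gene lists were chosen with earlier results of these data known. Genes named are the 6 members, list or neighbouring genes past 2-fold with at least 100 reads or with a DMR, Il10 and Il21, and the 5 genes most like Lag3 and Cd4. Markers and lineage factors named beside these, Pianp and Clec4g, were picked with values known. The alternatives tried were other cells, lanes, scalings, priors, windows and barcodes. Of the fixed lists, some genes were not analysed here. Doublets were not removed. The sequence of 1 region is not reported here.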

Additional observations from a re-analysis of the deposited data

How the results depend on the processing

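Of 245 recomputed values, 194 were counted as unchanged, 51 as moved and 0 changed sign from a called value. Levels, shares and methylation differences counted as unchanged within the counting interval or spread of the reported value. The numbers of genes and of regions were held to a wider bound. Under it, 3796 genes past a 2-fold rise with 0.1 CPM added and 3283 in lane 2 counted as unchanged from 3021. The log2 ratio of Lag3 (9.45) was 9.53 over all deposited cells, 9.33 as a mean over cells, 12.77 and 6.14 with 0.1 and 10 CPM added, 9.58 and 9.10 in lanes 1 and 2, and 9.52 without cells with other markers. The number of genes past a 2-fold rise (3021) was 1283 with 10 CPM added. The Lag3 promoter log2 ratio by barcode ending (2.68) was 2.57 with all barcodes, 2.80 per barcode, 3.26 within 500 bases of the start and 3.52 over the 2 kb upstream. Other ranges were 1.10 to 1.61 for Cd4, 1.28 to 3.30 for Ptms, 0.34 to 0.65 for Mlf2 and -1.67 to -0.20 for Cops7a, whose 2-fold difference was lost in lane 1, over all deposited cells, over cells with at least 500 genes, as a mean over cells and with 10 CPM added; the cause was not tested. With all cytosines in place of CpGs, the methylation differences were nearer to 0 (-0.0411 to -0.0664), since other cytosines were hardly methylated. The share of treated cells with Lag3 stayed within its interval, and the number of regions stayed at 4, under every alternative run on them. The barcode shares, the settings without other markers and the RefSeq start of Ptms were added after the data were seen. No paired analysis was possible because every table used here holds 1 sample or 1 value per group.

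Each group is 1 sample or value in the tables used here, so that none of the differences has a repeat in them. Bisulfite depth is unknown, barcode endings are not assigned to groups, and SmartSeq2 counts are PCR copies without molecular identifiers, in cells with a median of 850 to 861 genes.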
